A study of Mus musculus with 10 samples.

Results

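An alternative 5′ splice site, or alternative donor, is a choice between a pair of points at which the same exon can end. All events of the type AD in the deposited splicing table were taken, which gave 2326 of 167895 events (2323 distinct positions) in 1988 of 13706 genes. The RNA came from isolated islets of 5 male NZO mice (strain NZO/HiBomDife, obese and prone to diabetes) and 5 male B6-ob/ob mice (C57BL/6J.V-Lepob/ob, obese through the leptin mutation and resistant to diabetes). By the study's methods, every mouse ate a diet without carbohydrates to 18 weeks of age and then carbohydrates for 2 days before the islets were taken. Strain, leptin genotype and all genetic background differ together in this comparison and cannot be told apart. The labels call the tissue pancreas, and the mean normalized counts over all libraries were 6676905 for the beta cell gene Ins2, 240204 for the alpha cell gene Gcg and 1.1 to 402.5 for the 8 acinar markers, so the defining islet genes were present and the acinar genes were far below them.

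At the start of splicing the 5′ end of U1 small nuclear RNA pairs with the donor, and U6 takes its place before the first cut. The intron nearly always begins with GT, less often with GC, and bases on both sides of the cut add to the pairing. When the downstream donor of a pair is used, the stretch between the donors stays in the messenger RNA. When the upstream donor is used, the stretch leaves with the intron. A stretch whose length is divisible by 3 adds or removes whole codons where it is coding, and any other length shifts the reading frame. The measure is PSI (proportion spliced in), here read as the share of transcripts that use the downstream donor. Where stretches touch, it is read as the share that use that donor or one beyond it. This second reading is not strict, because each stretch has its own value and a later one can stand higher, as in 4932438A13Rik below. PSI was deposited as 1 value per strain, pooled over the 5 mice, so a difference between strains has no replicate error and no test. An event was counted as different past 0.1 in PSI in either direction, the difference always being NZO minus B6-ob/ob, without the authors' probability.

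The donors themselves show how alike the members of a pair can be. The sequences are those of the C57BL/6J reference (GENCODE M21 transcripts, mm10), written from 3 exonic bases on, with the first 2 intronic bases in capitals. The most frequent base at each of the 9 positions of annotated donors is given first, followed by pairs of which both donors could be read, which are shown because their PSI can be set beside both sequences.
most frequent bases: cagGTaagt
Srsf5 upstream donor: ccgGTaggt
Srsf5 downstream donor: tagGTgagt
Enox1 upstream donor: catGTgagt
Enox1 downstream donor: tgaGTaagt
Mtif3 upstream donor: cagGTaacg
Mtif3 downstream donor: gagGTgagg
Ccnd3 upstream donor: gtgGTgagc
Ccnd3 downstream donor: tagGTaggc

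For other events that carry the strain differences below, the stretch between the donors is shown, because it is what the transcripts of the strains gain or lose. Each is printed with the 3 exonic bases before it, and the capitals mark the first 2 bases of the stretch, where the intron begins if the upstream donor is used.
Cep131, chr11:120073123-120073127, minus strand: cagGTact
4932438A13Rik, chr3:36863330-36863348, plus strand: gagGTgggcagcgcctttccgg
Tcf7l2, chr19:55910670-55910681, plus strand: atgGTtagtaccaca
Gne, chr4:44072362-44072387, minus strand: cggGTgaatggggaccggggcttgcagag
Tirap, chr9:35199211-35199220, minus strand: acaGTaagtctat
Lig3, chr11:82781273-82781276, plus strand: aagGCag
Cnot1, chr8:95754965-95754979, minus strand: agaGTaagatgaaacctt
Cep131, Tcf7l2 and Tirap have GT at the upstream donor, whereas Lig3 has GC there. Cnot1, in which the strains hardly differed, also begins with GT.

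The lengths of the stretches ran from 1 to 2886 nt with a median of 57 nt and a middle range of 19 to 138 nt. The most frequent length by far was 4 nt, with 100 events, followed by 9 nt with 51, 5 nt with 50, 6 nt with 49 and 12 nt with 48. The alternative 3′ splice sites (acceptors, type AA) of the same table had their peak elsewhere, with 567 of 2850 events at 3 nt and 112 at 4 nt, whereas only 32 donor pairs were 3 nt apart. Of all donor pairs, 894 (38.4%) were a multiple of 3 nt apart and 1432 were not. The share was 50.4% in alternative acceptors, 39.4% in cassette exons and 33.2% in retained introns. These are counts of listed events that depend on the annotation the authors indexed, and no test was made between types.

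**Figure D1:**
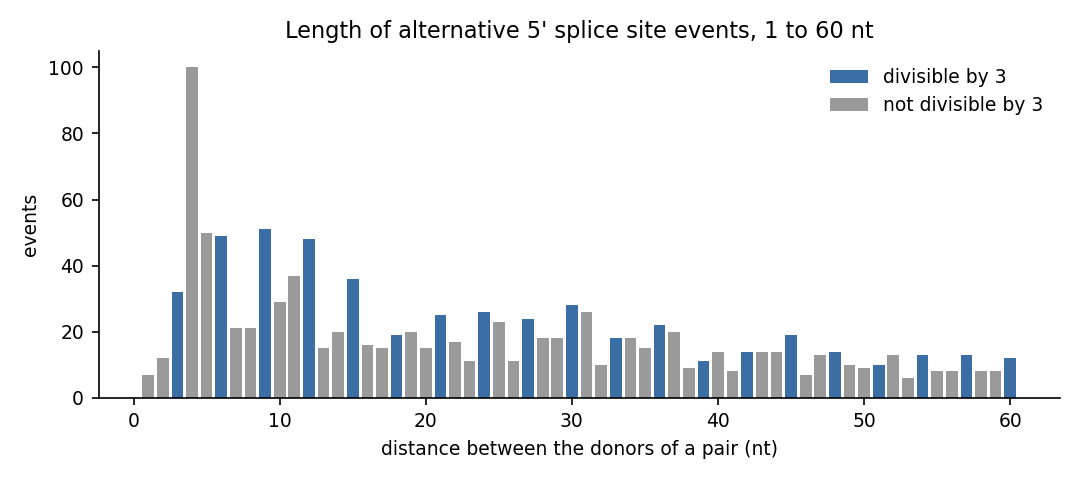
Number of alternative 5′ splice site events (y axis) at each distance between the donors from 1 to 60 nt (x axis), with lengths divisible by 3 in blue and others in grey. The bar at 4 nt stands highest with 100 events, and beyond 6 nt the highest bars are 9 nt (51) and 12 nt (48).

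The 4 nt pairs were a class of their own in sequence. In 81 of the 100 the stretch began with GT and in 19 with GC, whereas in all 2319 members with at least 2 bases in the stretch it was GT in 2175, GC in 113 and another pair of bases in 31. Where the downstream donor of a 4 nt pair could be read too (29 pairs), both began with GT in 23. With GT upstream, the downstream donor of the 4 nt pairs had a median PSI of 0.148 for NZO and 0.139 for B6-ob/ob, so that most transcripts stopped at the first GT. With GC upstream, the medians were 0.654 and 0.766. The same held over all lengths, with medians of 0.415 and 0.39 for GT and 0.88 and 0.877 for GC. In both strains, the median pair with a GC donor upstream mostly used the downstream donor.

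PSI was spread over the whole scale. In NZO islets, 553 events had a PSI under 0.1, 1201 lay between 0.1 and 0.9, and 572 lay over 0.9. In B6-ob/ob islets the counts were 577, 1188 and 561. Both strains had 478 events under 0.1 and 494 over 0.9 in common. The PSI values of the strains had a Pearson correlation of 0.963 across the 2326 events, given as a description, since events of a gene share reads and donor sequence. The median absolute difference was 0.0262.

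The annotation placed 1256 stretches on coding sequence, 785 on untranslated sequence alone and 285 on noncoding transcripts alone. On coding sequence, 44.5% of the lengths were divisible by 3, against 31.7% of the untranslated and 30.2% of the noncoding stretches. The coding stretches were also shorter, with a median of 43 nt against 72 nt and 86 nt. Coding stretches that kept the frame were used at a median PSI of 0.611 for NZO and 0.597 for B6-ob/ob, and those that shifted it at 0.818 and 0.81. In 253 of the 697 that shifted the frame, only the downstream donor ends an exon of a protein-coding transcript. This was so in 58 of the 559 that kept it. Coding stretches of that kind had medians of 0.936 and 0.946, and their part in the gap was not tested.

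Use of the downstream donor followed which donor ends an exon of a protein-coding transcript. Where only the upstream donor does so (458 events), the median PSI was 0.0966 in NZO and 0.0877 in B6-ob/ob. Where only the downstream donor does so (346 events), it was 0.925 and 0.936. Where both do (1386 events) it was 0.487 and 0.476, in the middle of the scale. In both strains, where only 1 donor ends an exon of a protein-coding transcript, that donor was thus the main one at the median. Of the 458 stretches in the first group, 248 still overlapped coding sequence, which was counted for any type of transcript.

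The reading frame was followed from the upstream form into the stretch wherever that form is coding. Events where only the downstream donor ends an exon of a protein-coding transcript are thus left out, and those where only the upstream one does can enter. A stop codon then lay within the stretch in 380 events and in none of the forms in 717. With a stop, the median PSI was 0.107 in NZO and 0.104 in B6-ob/ob. Without one it was 0.462 and 0.429. Stretches with a stop were longer (median 115 nt against 27 nt). The part of length in this difference, and that of which donors end protein-coding exons, was not tested. Among stretches without a stop, those that kept the frame had a PSI of 0.603 and 0.591 (408 events) and those that shifted it 0.185 and 0.157 (309 events). Through this choice of events, these values cannot be set beside those of all coding stretches above.

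Donor strength was scored in bits from 3 exonic and 6 intronic bases, where a higher score is closer to annotated donors. The upstream donor could be scored in 2186 events (94%). The use of the downstream donor fell with each step in the score of the upstream one. At scores of 0 or less (65 events) the median PSI was 0.952 in NZO and 0.961 in B6-ob/ob, at 2 to 4 bits (424 events) 0.568 and 0.589, at 6 to 8 bits (589 events) 0.354 and 0.337, and above 8 bits (245 events) 0.202 and 0.193. The spread within each step was wide, and across events the rank correlation of score and PSI was only -0.192 in NZO and -0.193 in B6-ob/ob. Both donors could be scored in 729 events (31.3%), and there the one with the higher score was the more used in 411 (56.4%).

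**Figure D2:**
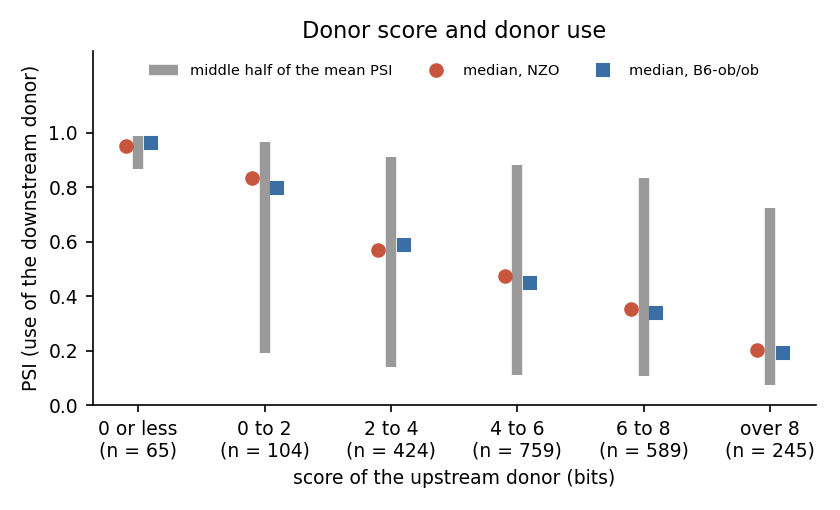
PSI, the share of transcripts using the downstream donor (y axis), by the score of the upstream donor in bits (x axis), as medians of NZO (circles) and B6-ob/ob (squares), with the range from the 25th to the 75th percentile of the events' mean PSI over the strains as grey bars. The medians fall from 0.952 and 0.961 at 0 bits or less to 0.202 and 0.193 above 8 bits, and the bars from 0 bits upward overlap.

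In pairs with 2 readable donors, score and use can be set side by side. The scores are those of the C57BL/6J reference, and whether NZO carries other bases was not analysed. In Srsf5, an SR protein that binds exonic enhancers, the upstream donor of the 4 nt pair scored 7.59 bits, the downstream one 0.0105 bits more, and the 4 nt stretch had a PSI of 0.816 for NZO and 0.817 for B6-ob/ob. The 126 nt stretch that touches it, and runs on to a further donor, was included at 0.157 and 0.154, so the PSI of the 4 nt stretch counts transcripts of both donors below the first. In Mtif3, a mitochondrial translation initiation factor, the upstream donor scored 8.17 bits and the downstream one 5.56 bits, and PSI was 0.627 for NZO and 0.239 for B6-ob/ob. The donor with the lower score was therefore the more used in NZO alone. In Enox1, a surface oxidase, the scores were 7.66 and 3.77 bits, and the weaker downstream donor was used at 0.794 in NZO and 0.477 in B6-ob/ob. In B6-ob/ob, the upstream donor with the higher score was thus the more used in both Mtif3 and Enox1.

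Between the strains, 358 events (15.4%) differed by more than 0.1, of which 198 were higher and 160 lower in NZO, in 336 genes. Of all 167895 events of the table, 8.73% did so (4.32% higher and 4.41% lower). The share was 14.9% in alternative acceptors, 11.5% in retained introns and 1.48% in cassette exons. It was higher than in donor pairs in tandem polyadenylation sites (29.4%) and tandem transcription starts (23.3%). A mean PSI of 0.1 to 0.9 was found in 52.5% of the donor pairs and in 7.22% of the cassette exons. Among events in that range, 28.5% of donor pairs, 29.3% of acceptors, 29% of retained introns and 18.5% of cassette exons differed. The shares were 50.6% of tandem polyadenylation sites, 47.6% of tandem transcription starts and 38.8% of all events. Of the donor pairs that differed, 55.3% were higher in NZO. Among differing events of other types, this held for 53.1% of acceptors, 73.1% of retained introns and 32.8% of cassette exons. It held for 50.1% of tandem polyadenylation sites and 50% of tandem transcription starts.

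**Figure D3:**
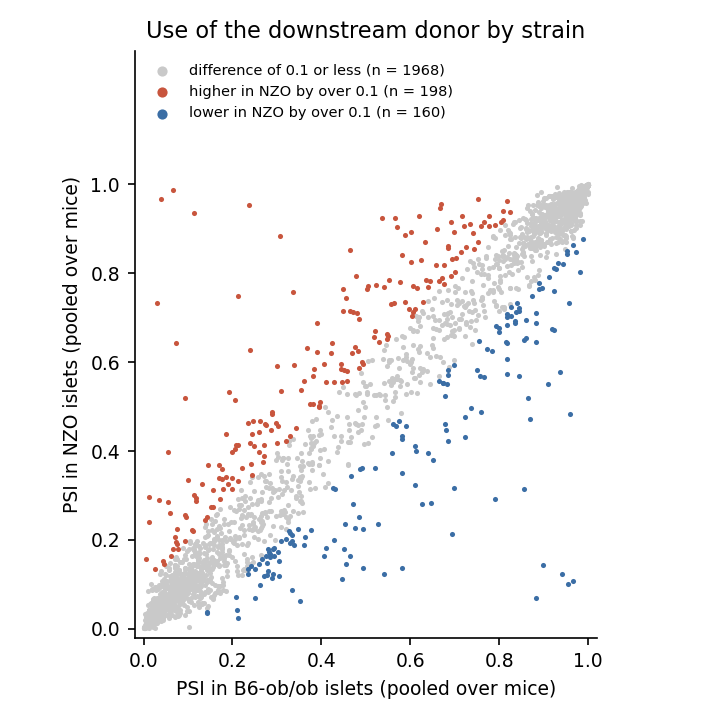
PSI of the 2326 alternative 5′ splice sites in B6-ob/ob (x axis) and NZO islets (y axis), each value pooled over the mice of a strain, with the 198 events higher in NZO by over 0.1 in red, the 160 lower in blue and the rest in grey. Most points lie along the diagonal, and a few lie in the upper left and lower right corners.

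Large differences were few. A difference of more than 0.2 was found in 121 events (5.2%, beside 3.65% of all events), of more than 0.5 in 14 (0.602%, beside 0.458%) and of more than 0.8 in 7. In 108 events the more used donor was not the same in both strains, and 90 of these differed by more than 0.1. Only 2 events went from under 0.1 in one strain to over 0.9 in the other, namely those of Cep131 and Ly6a, both high in NZO. The share that differed was 9.81% of the 1060 events in genes whose mean normalized count reached 1000, 14.3% of the 2151 at 100 or more (beside 7.99% of all events in such genes) and 30.4% of the 112 below 100, and the part of counting error in this was not tested.

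By length, the share that differed was 5.26% at 1 or 2 nt (19 events), 12.5% at 3 nt (32 events) and 11% at 4 nt. It was 10% at 5 nt, 14.3% at 6 nt, 16.7% at 7 to 30 nt, 15% at 31 to 99 nt and 16.2% at 100 nt or more. Events with a length divisible by 3 differed in 16% and the others in 15%. With a mean PSI of 0.1 to 0.9, these shares were 26.8% and 29.8%. By place, untranslated stretches differed in 21.8% (84 higher, 87 lower), coding stretches in 11.8% (89 higher, 59 lower) and noncoding ones in 13.7%. Among events with a mean PSI of 0.1 to 0.9 the shares were 33.7%, 24.5% and 27%. On coding sequence, 14.3% of the stretches that kept the frame and 9.76% of those that shifted it differed, so that 80 of the 148 coding stretches past the limit kept the frame. Of the coding stretches that kept the frame, 54.2% had a mean PSI of 0.1 to 0.9, against 40.3% of those that shifted it. The part of this in the gap was not tested.

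**Figure D4:**
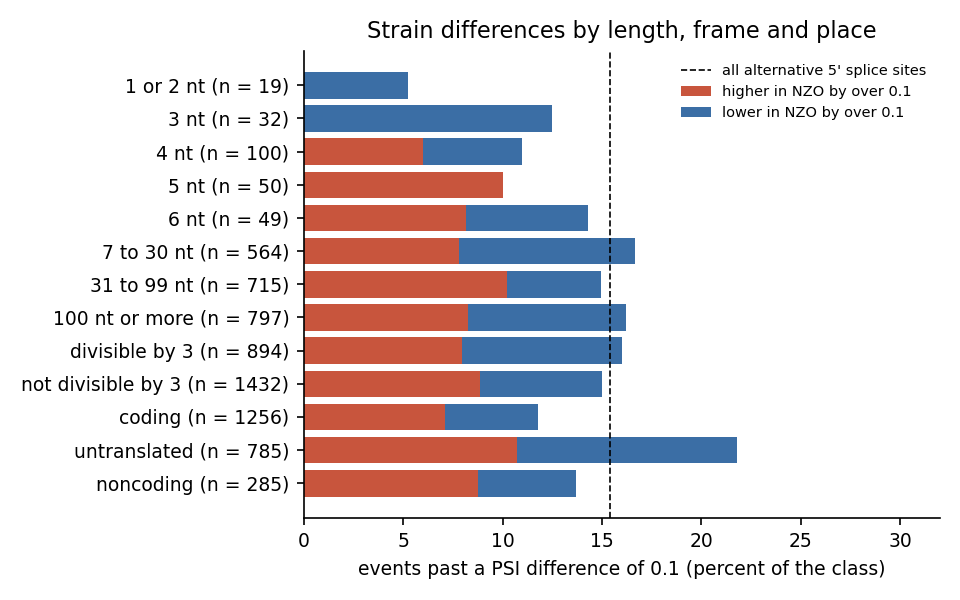
Share of alternative 5′ splice site events with a PSI difference over 0.1 (x axis, percent of the class) by length, divisibility by 3 and place (y axis, with the number of events), split into higher (red) and lower (blue) in NZO, with the dashed line at the 15.4% of all 2326 events. Untranslated stretches reach furthest with 21.8%, and every class up to 6 nt stays below the line, from 5.26% at 1 or 2 nt to 14.3% at 6 nt.

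The largest differences are given for genes whose mean normalized count reached 100. The largest rise in NZO was in Cep131, a centriolar satellite protein needed for cilium formation, whose downstream donor had a PSI of 0.968 for NZO against 0.0391 for B6-ob/ob. The donors lie 5 nt apart on coding sequence, the stretch begins with GT and shifts the frame, and both donors end exons of annotated protein-coding transcripts. In Ly6a, which encodes the surface protein Sca-1, a 31 nt untranslated stretch (chr15:74997848-74997878, upstream donor gaaGTaagg) stood at 0.988 and 0.0654 in the same order. In Zfp595, a zinc finger protein, a 133 nt stretch was at 0.934 and 0.114.

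These were near-complete switches, whereas the next events moved between partial and main use. In Nemp2, a protein of the inner nuclear membrane, a 2090 nt stretch rose to 0.644 in NZO from 0.0732 in B6-ob/ob. In Polm, a DNA polymerase of end joining, a 272 nt stretch was at 0.759 and 0.335. In both genes, only the upstream donor ends an exon of a protein-coding transcript, and the stretch holds a stop codon in its frame. The form higher in NZO was thus the one whose donor ends no exon of an annotated protein-coding transcript. In Mx2 and Hexdc, given below, a form of that kind was higher in B6-ob/ob. Of all 458 events with such donors, 37 were higher and 16 lower in NZO (11.6%, beside 15.4% of all donor pairs). In Hexim2, an inhibitor of the transcription elongation kinase P-TEFb, a 35 nt untranslated stretch was at 0.852 and 0.464. In Gne, the enzyme that starts sialic acid synthesis, the 26 nt untranslated stretch was at 0.925 and 0.537.

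In the other direction, the widest gap was in 4932438A13Rik, where a 50 nt and a 19 nt stretch touch in the untranslated part and fell together. The 50 nt stretch was at 0.102 in NZO and 0.954 in B6-ob/ob, and the 19 nt stretch at 0.108 and 0.965. Transcripts of NZO thus mostly ended the exon at the first of the chained donors, and those of B6-ob/ob at the last. The gene had a mean normalized count of 3280, the highest among the events that differed by more than 0.5. The first donor (caaGTgaga) scored 6.22 bits and the second (gagGTgggc) 4.51 bits.

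In Mx2, which encodes an antiviral GTPase, PSI was 0.123 for NZO and 0.940 for B6-ob/ob at donors 3 nt apart on coding sequence (chr16:97552064-97552066). Its stretch, with the 3 exonic bases before it, reads aaaAAg, so that the upstream donor of the reference begins with AA and not with GT. Only 2 of the 2319 stretches read began that way. In Trim12c, a member of the TRIM family of ubiquitin ligases, a 110 nt untranslated stretch was at 0.144 and 0.897. Trim12c has close relatives in the genome and Ube2d-ps is a pseudogene, so reads may be shared with near-identical copies and their values are uncertain. The 324 nt stretch of Ube2d-ps was at 0.484 and 0.959.

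Further falls were partial. In Fam107a, an actin-associated protein, a 154 nt stretch was at 0.213 in NZO and 0.694 in B6-ob/ob. In Hexdc, a hexosaminidase, a 1906 nt stretch was at 0.137 and 0.580, with scores of 7.43 bits upstream and 4.17 bits downstream. In Tirap, an adaptor of Toll-like receptors, the 10 nt untranslated stretch was at 0.316 and 0.697. In each of these 3 genes the main donor was the downstream one in B6-ob/ob and the upstream one in NZO.

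**Figure D5:**
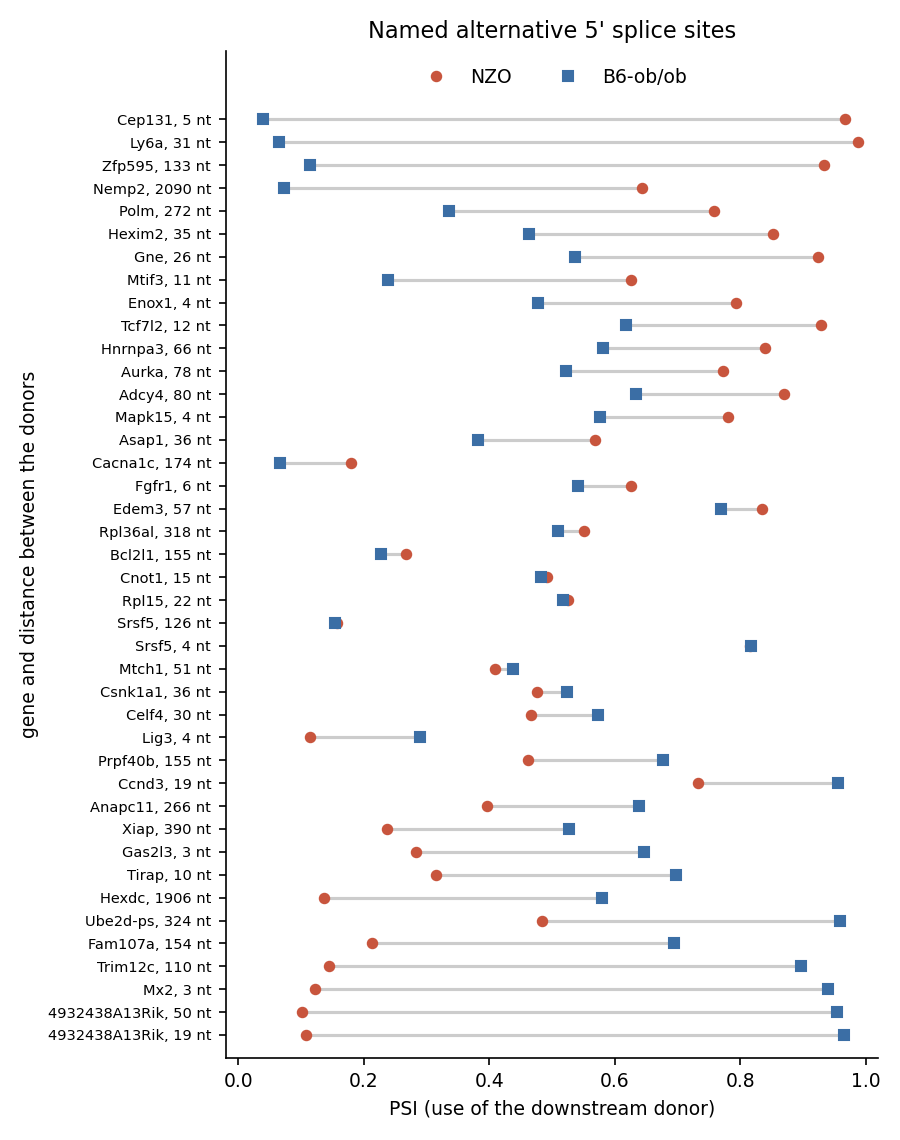
PSI (x axis) of 41 alternative 5′ splice sites chosen by the naming rule, each a gene and the distance between its donors (y axis), in NZO (circles) and B6-ob/ob islets (squares), ordered by the difference. Cep131 and Ly6a span nearly the whole scale at the top, both 4932438A13Rik stretches do so at the bottom, and the Srsf5, Rpl15 and Cnot1 values lie on top of each other.

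Of the 100 pairs 4 nt apart, 6 were higher and 5 lower in NZO (11%, beside 15.4% of all donor pairs). In genes whose mean normalized count reached 100, the widest gaps were in Enox1, described above, in Mapk15, an atypical MAP kinase, at 0.781 and 0.577 on coding sequence, and in Lig3, the DNA ligase of single-strand break repair, at 0.114 in NZO and 0.289 in B6-ob/ob. Of 310 events under 30 nt with a length divisible by 3, at any place, 17 were higher and 34 lower (16.5%). Among those in genes above the same count minimum, the widest gap after Mx2 was in Gas2l3, at 0.284 and 0.647. Gas2l3 is a linker of actin and microtubules, and its 3 nt stretch is untranslated. Next came Tcf7l2, the Wnt pathway transcription factor that carries risk alleles for type 2 diabetes in humans, in which 12 nt of coding sequence, or 4 codons, were included at 0.929 in NZO and 0.619 in B6-ob/ob. The gene is low here, with a mean normalized count of 176.

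Genes of splicing itself are given beside the 15.4% of all donor pairs that passed the limit, with no test. Of 10 events in the list of 5′ splice site recognition, 1 was lower in NZO and none higher, which is Prpf40b, a U1-associated factor, with a 155 nt untranslated stretch at 0.461 and 0.677. None of the 6 events in SR proteins passed the limit. Of 19 events in hnRNPs and tissue-specific splicing factors, the 66 nt coding stretch of Hnrnpa3 was higher at 0.840 in NZO and 0.581 in B6-ob/ob, and the 30 nt coding stretch of Celf4 lower at 0.467 and 0.574. The median absolute differences of these lists were 0.0168, 0.0131 and 0.0194, beside 0.0262 over all members.

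Islet and secretion genes were listed with few donor pairs, too few to set their shares against the 15.4% of all members. In the list of beta cell identity and hormone processing, 1 of 3 events passed the limit, that of Tcf7l2. The 15 nt stretch of Scg3, a secretory granule protein chosen after its values were seen, was included at 0.320 and 0.322. In insulin secretion and exocytosis, 2 of 10 were higher, the 80 nt untranslated stretch of Adcy4, an adenylate cyclase, at 0.870 and 0.634, and the 174 nt coding stretch of Cacna1c, the L-type calcium channel of beta cells, at 0.180 and 0.0671. The 18 nt stretch of the sulfonylurea receptor gene Abcc8, also chosen after its values were seen, was at 0.637 and 0.621. Of 10 events in diabetes genes, only Tcf7l2 passed the limit.

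In ubiquitin-mediated proteolysis, 5 of 9 events passed the limit, 1 higher and 4 lower, with a median absolute difference of 0.104. Xiap, a ligase that inhibits caspases, had its 390 nt untranslated stretch at 0.237 in NZO and 0.527 in B6-ob/ob. Anapc11, the RING subunit of the anaphase-promoting complex, had a 266 nt untranslated stretch at 0.396 and 0.639. The list is small and was drawn up with earlier results of these data known, so nothing is read from its share. In the list of interferon response and antigen presentation, 2 of 3 events were lower, among them that of Mx2.

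The remaining lists gave single cases. In cell cycle and centrosome genes, the 78 nt coding stretch of the mitotic kinase Aurka was higher at 0.773 and 0.523, and the 19 nt untranslated stretch of cyclin D3 (Ccnd3) lower at 0.733 and 0.956, with 3 other events within the limit. In endocytosis and vesicle coats, 1 of 6 events passed, the 36 nt coding stretch of Asap1, an Arf GTPase-activating protein, at 0.568 and 0.382. None of 5 events in the unfolded protein response and none of 4 in apoptosis genes did. Edem3, which trims mannose from misfolded proteins, was at 0.834 and 0.770 with 57 nt.

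Of genes known for alternative donors, 5 events were listed and none passed the limit. Fgfr1, the fibroblast growth factor receptor in which 2 codons are known to be included or skipped, had its 6 nt coding stretch (accGTaggc with the exonic bases before it) at 0.626 in NZO and 0.541 in B6-ob/ob. Bcl2l1, in which a donor choice decides between a long survival form and a short death-promoting form, was listed with another, untranslated stretch of 155 nt, at 0.268 and 0.227.

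Some pairs were evenly used in both strains. With a mean PSI of 0.4 to 0.6 and a difference under 0.05, the most abundant genes were Csnk1a1 (casein kinase 1 alpha, 36 nt, coding) at 0.476 in NZO and 0.523 in B6-ob/ob, Mtch1 (an outer mitochondrial membrane protein, 51 nt, coding) at 0.410 and 0.437, and Rpl15 (a ribosomal protein, 22 nt, untranslated) at 0.526 and 0.518. Rpl36al, another ribosomal protein, was at 0.552 and 0.509, and Cnot1, the scaffold of the deadenylase complex, at 0.493 and 0.482. Ribosomal protein genes have many processed copies in the genome, so the values of Rpl15 and Rpl36al are less certain.

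Some events were neighbours. In 105 of the 1988 genes, 221 of the 2326 stretches (9.5%) touched another, as in 4932438A13Rik. Of these, 21.3% differed between the strains, against 14.8% of the rest. A mean PSI of 0.1 to 0.9 was found in 69.7% of the touching stretches and in 50.6% of the rest. The part of this in the difference between 21.3% and 14.8% was not tested. Of 116 touching pairs, both passed the limit in 15 and did so in the same direction in 13. Touching stretches share reads and donors and are not independent. Of 324 genes with a differing donor pair and a listed cassette exon, retained intron or alternative acceptor, 118 (36.4%) also had one of those past 0.1, against 292 of 1594 (18.3%) other genes with donor pairs. Neither the mean count nor the number of listed events per gene was held equal between these groups. Their part in the gap was not tested.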

How the data were processed

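Islet RNA of both strains was sequenced as paired Illumina reads. Salmon, DESeq2 and the build mm10 are credited to the submitters' processing notes and Whippet to the paper's methods, and their versions are not given in the sources used here. The splicing table deposited by the authors gives PSI as a fraction for each strain, pooled over its mice, and the gene table deposited by the authors gives a mean signal per gene, the count normalized by DESeq2 size factors and averaged over all libraries. Depth per sample is therefore unknown, and only these columns were used. The authors' own differences and probabilities in PSI, their fold changes with adjusted p-values, and their sheets of significant genes and events were left out. No column held values of single mice.

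The PSI of B6-ob/ob was subtracted from that of NZO. Length is the end minus the start of the deposited coordinates, both ends included. Place, forms and frames come from GENCODE M21, in which all 2326 events had both donors at annotated exon ends. As no genome sequence was used, donors were read from transcripts that run across them. Score weights were learnt from 32461 of 250183 annotated donors, those outside the events that such transcripts cover, with a pseudocount of 1. These are donors that some transcripts skip, so the score describes alternative more than constitutive donors. Whether NZO carries other bases was not analysed here.

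The events, gene lists (13), limits and naming rule were chosen with earlier results of these data known. Named were, in genes whose mean normalized count reached 100, the 8 largest differences each way, up to 2 per list and known alternative donors. So were the 3 widest 4 nt pairs and the 5 most abundant even pairs. The 3 widest pairs under 30 nt with a length divisible by 3 were also named. Genes outside the rule are marked, and a few items are not reported here. Alternatives were a limit of 0.2, the count minimum, 1 event per gene, a mean PSI of 0.1 to 0.9, coding stretches, GT pairs and a count of matching bases. Functions were tested on simulated data. Python 3.11.15, pandas, scipy and matplotlib were used.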

Additional observations from a re-analysis of the deposited data

How the results depend on the processing

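The count of 358 events past a difference of 0.1 became 121 at a limit of 0.2, and 118 of 664 where only pairs with both donors read and GT at each were kept, in both cases because fewer events qualify. It was 308 to 348 under the count minimum, 1 event per gene and a mean PSI of 0.1 to 0.9. The share of lengths divisible by 3 moved from 38.4% to 41.6% at a mean PSI of 0.1 to 0.9 and to 44.5% on coding sequence, and the cause was not tested. The share of differing events higher in NZO (55.3%) lay between 55.4% and 58.1% under its alternatives, that of differing lengths divisible by 3 (39.9%) between 39.7% and 40.6%, and that of the higher-scoring donor used more (56.4%) between 53.8% and 57.7%. No paired analysis was possible because the deposited values are pooled over the mice of a strain, and for the same reason no mouse could be left out. Without depth per event, differences near 0.1 in genes of low count cannot be told from counting error.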
